A study of Mus musculus with 6 samples.

Results

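The genes described here are 5 members of the mouse Ly6 family, Ly6a, Ly6c1, Ly6c2, Ly6e and Ly6d. They were chosen by name, and all 5 were found among the 34866 genes of the deposited table. RNA came from live-sorted effector memory CD4+ T cells of the spleen, helper T cells that have met antigen before. The libraries were 3 from wild-type mice (WT 1 to 3) and 3 from mice lacking Il1rn (Il1rnKO 1 to 3), the gene of the interleukin-1 receptor antagonist. The labels give no strain, age, sex or treatment of the mice and no name of the Il1rn allele. Whether each library is a separate animal is not stated, and every p-value below therefore reflects no more than how far these 6 samples spread, and that spread may be technical.

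Ly6 proteins are small surface proteins held in the membrane by a glycosylphosphatidylinositol (GPI) lipid anchor and built around a compact cysteine-rich fold. Many of them lie in 1 gene cluster on mouse chromosome 15 and several are induced by interferons, and they are widely used as surface markers of blood cell types and of activated or memory T cells. LY6A is also called Sca-1 and marks blood stem cells and activated T cells, LY6C marks inflammatory monocytes and some memory T cells, LY6E is an interferon-induced inhibitor of coronavirus entry, and LY6D marks cells committed to the B lineage. The level of LY6A and LY6C on T cells is known to differ among inbred mouse strains.

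The members span 349.9 kb of chromosome 15 (GRCm38). Ly6d (ENSMUSG00000034634.7) lies from 74762056 to 74763620 and Ly6e (ENSMUSG00000022587.14) from 74955051 to 74959905. Ly6a (ENSMUSG00000075602.10) lies from 74994877 to 74998031, Ly6c1 (ENSMUSG00000079018.10) from 75044018 to 75048830 and Ly6c2 (ENSMUSG00000022584.14) from 75108158 to 75111970. All 5 are annotated as protein-coding. Ly6e is on the plus strand and the other members are on the minus strand.

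The coding sequences of Ly6c1 and Ly6c2 are near-identical, which bears on the values given for either gene. Only coding bases were compared, whereas the longest transcripts have 844 bases for Ly6c1 and 2680 for Ly6c2. How many reads could come from either gene is therefore not shown. Over their 396 coding bases they differ at 9, an identity of 97.7%, and the longest stretch without a difference is 188 bases, longer than a 150-base read. The substitutions from Ly6c1 to Ly6c2, counted from 1 at the first base of the start codon, are C8G, T10A, A16G, G31T, C36G, A65G, G254A, T327C and G376A. The first 90 coding bases, which hold 6 of the 9, are shown from the GENCODE M21 transcripts, 5′ to 3′. Capitals in Ly6c1 and Ly6c2 mark the positions where this pair differs, and capitals in Ly6a mark where it differs from Ly6c1.
Ly6c1: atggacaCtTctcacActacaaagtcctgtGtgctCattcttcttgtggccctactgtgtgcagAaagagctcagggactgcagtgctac
Ly6c2: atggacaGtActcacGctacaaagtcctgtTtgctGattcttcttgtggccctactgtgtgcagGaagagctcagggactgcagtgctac
Ly6a: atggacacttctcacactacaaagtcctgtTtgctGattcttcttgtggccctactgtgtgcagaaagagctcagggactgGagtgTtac
Ly6a differs from Ly6c1 at 4 of these 90 bases, but over the whole aligned coding sequence the identity of this pair is 83.8%, and their longest shared stretch is 48 bases. Ly6e and Ly6d stand apart from the others. Ly6e shares 59.5% of aligned coding bases with Ly6a, and Ly6d shares 65.4%, with no stretch longer than 10 bases. The neighbour Ly6i, which is not among the 5, shares 86.4% with Ly6a and a stretch of 80 bases.

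Libraries held 14102183 to 17677217 counts. Levels are in CPM, counts scaled to library totals that TMM factors correct for composition, and 1 CPM stands for 12.9 to 18.2 counts. Il1rn itself had 6, 10 and 0 counts in WT 1 to 3 and 1, 3 and 1 in Il1rnKO 1 to 3, too few to check the genotype labels. Markers of CD4 T cells (Cd4, Cd3d, Cd3e, Cd3g, Cd5 and Cd2) were all detected, with a summed level of 2794 to 3087 CPM in wild type and 2846 to 3450 CPM in knockout. The B cell, CD8 T cell, natural killer cell, plasma cell and dendritic cell lists each summed to at most 10.5 CPM in any library. The neutrophil list of 10 genes summed to 4.48 to 7.13 CPM in wild type and 36.5 to 117 CPM in knockout, highest in Il1rnKO 3; all 10 were detected, and Ngp and Mmp8 had 0 counts in wild type. The monocyte list of 7 genes summed to 158 to 211 CPM in wild type and 188 to 397 CPM in knockout, again highest in Il1rnKO 3, with Ccr2 the largest contributor at a mean of 134 CPM; Ccr2 is also expressed by memory T cells. The mitochondrial share of the counts was 5.68, 7.32 and 8.92% for WT 1 to 3 against 3.69, 3.44 and 8.34% for Il1rnKO 1 to 3.

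Averaged over the libraries, Ly6e was the member with the most RNA per length, and Ly6a came next. Ly6c1 and Ly6c2 were close to the limit of measurement, and Ly6d was all but undetected. Per kilobase of exon, the mean over 6 libraries was 16.1 ± 2.69 CPM for Ly6e and 7.16 ± 4.55 CPM for Ly6a (SD, n = 6). Ly6c2 had 0.613 ± 0.435, Ly6c1 had 0.519 ± 0.475 and Ly6d had 0.0742 ± 0.182 CPM per kilobase (SD, n = 6). Among 13338 tested genes with an annotated length, 77.1% lay below Ly6e on this scale, 56.1% below Ly6a, 16.2% below Ly6c2 and 14.3% below Ly6c1. The lowest Ly6e library (12.5 CPM per kilobase) was below the highest Ly6a library (16.0), so these neighbours in the order overlapped. Within Il1rnKO 3 itself Ly6a stood above Ly6e on this scale. Per kilobase of the longest transcript the ranges were apart, with a lowest Ly6e value of 20.7 and a highest Ly6a value of 20.2 CPM. Ly6a stood above both Ly6c genes in every library, its lowest value being 4.23 against their highest of 1.38 CPM per kilobase. The ranges of Ly6c1 and Ly6c2 overlapped, and with the longest transcript in place of all exons their order turned, at 1.03 and 0.627 CPM per kilobase.

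No member passed the test between Il1rn knockout and wild type. Of the 5, 4 had enough counts to be tested (Ly6a, Ly6c1, Ly6c2 and Ly6e), and 0 of 4 passed edgeR's quasi-likelihood test at an adjusted p of 0.05 (0 also at an unadjusted p under 0.05), beside 0.0523% of all 13374 tested genes called in either direction (7 genes) and 4.08% at an unadjusted p under 0.05. DESeq2 and limma voom also called 0 of the 4. The fitted log2 fold changes, knockout over wild type, were above 0 for all 4, beside 52.6% of all tested genes, with a median of 0.81 beside 0.02 for all tested genes. The 4 values are not independent, because the deposited counts divide reads between Ly6c1 and Ly6c2. The Ly6a value was -0.30 without Il1rnKO 3. The CPM ranges of the groups overlapped for each of the 4, and 9.42% of all tested genes had ranges that did not overlap. In bulk RNA, fewer cells expressing a gene and less RNA per cell cannot be told apart.

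**Figure D1:**
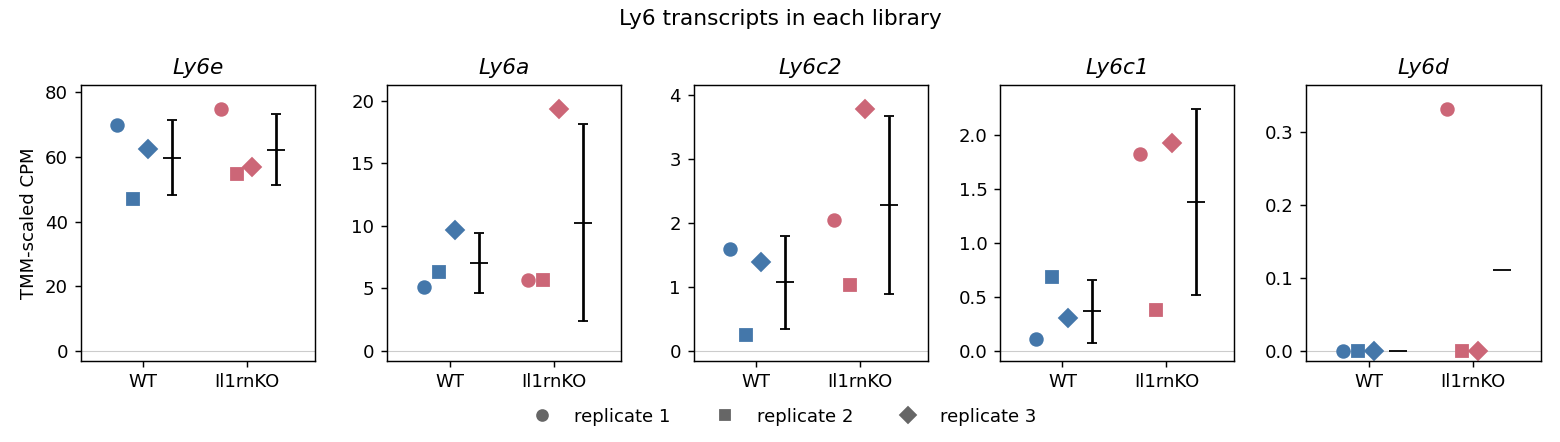
TMM-scaled CPM (vertical axes, each from 0 on its own scale) of the 5 members in the 3 WT (blue) and 3 Il1rnKO (red) libraries, with the group mean and SD as a black bar (mean only for Ly6d, which had counts in 1 library). The groups overlap in every panel, and Il1rnKO 3 is the highest library for Ly6a at 19.3 CPM and for Ly6c2 at 3.78 CPM.

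Ly6e, the abundant interferon-induced member, had similar ranges in both groups. It was at 70.0, 47.2 and 62.4 CPM in WT 1 to 3 and at 74.8, 54.9 and 56.9 CPM in Il1rnKO 1 to 3. The highest library of each group was its replicate 1, and the lowest of all was WT 2. Wild type averaged 59.9 ± 11.6 CPM and knockout 62.2 ± 11.0 CPM (SD, n = 3). The log2 fold change was 0.06 (SE 0.19), with an adjusted p of 0.993 by edgeR. Its highest library exceeded its lowest 1.59-fold. The SD of its log2 CPM over the 6 libraries was 0.243, beside a median of 0.202 for the 2138 tested genes within 0.5 log2 units of its level. The sign of its fold change turned without WT 2 (-0.09) or Il1rnKO 1 (-0.12).

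Ly6a, which encodes Sca-1, was below 10 CPM in 5 libraries and stood out in 1 knockout library. It was at 5.10, 6.30 and 9.66 CPM in WT 1 to 3 and at 5.69, 5.69 and 19.3 CPM in Il1rnKO 1 to 3. Il1rnKO 3 was 2.98 times the mean of the other libraries, and Il1rnKO 1 and 2 lay inside the wild-type range. These values rest on 93, 102 and 125 counts in WT 1 to 3 and on 103, 89 and 312 counts in Il1rnKO 1 to 3. Wild type averaged 7.02 ± 2.36 CPM and knockout 10.2 ± 7.87 CPM (SD, n = 3). The fitted change was 0.55 log2 units (SE 0.49), with an adjusted p of 0.988 by edgeR; without Il1rnKO 3 it was -0.30 (SE 0.38), with an adjusted p of 0.781. Il1rnKO 3 was also the library with the highest neutrophil list sum (117 CPM) and monocyte list sum (397 CPM). Of the latter, Ccr2 made up 265 CPM and Ms4a6c 108 CPM, and Ccr2 is also expressed by memory T cells. Lyz2, Cd14 and Fcgr1 were highest in Il1rnKO 3 too. Csf1r and F13a1 were highest in Il1rnKO 2, at 2.30 and 3.26 CPM, against 1.67 and 2.29 CPM in Il1rnKO 3. The part of neutrophils or monocytes in the Ly6a value was not tested. With limma voom and quality weights the Ly6a log2 fold change was 0.03 (SE 0.38). With the mitochondrial share of the counts as a covariate, the Ly6a log2 fold change was 1.08 (SE 0.27, unadjusted p = 0.00245 and adjusted p = 0.562 by edgeR).

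Ly6a varied more between libraries than most genes of like level, whereas Ly6e did not stand far from its neighbours in level. The SD of Ly6a log2 CPM over the 6 libraries was 0.723, and 94.4% of the 1169 tested genes within 0.5 log2 units of its level had a smaller SD. For Ly6e the corresponding share was 65.9%, for Ly6c2 it was 81.2% of 1121 genes and for Ly6c1 61.6% of 1129 genes. The 2 most abundant members were not in a fixed ratio. Ly6e exceeded Ly6a 13.7-fold, 7.48-fold and 6.46-fold in WT 1 to 3 and 13.2-fold, 9.64-fold and 2.95-fold in Il1rnKO 1 to 3, as CPM not divided by length. The lowest ratio was in Il1rnKO 3, the library with the most Ly6a, and each group's highest was in its replicate 1.

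Ly6c1 and Ly6c2, the genes of LY6C, were low in every library, and the deposited counts divide reads between them. Their estimated counts summed to 31, 15 and 22 in WT 1 to 3 and to 70, 22.5 and 92 in Il1rnKO 1 to 3. In 5 of 6 libraries the sum was a whole number within 0.001 although neither part was; in Il1rnKO 2 it was 22.4824. The share assigned to Ly6c1 was 7.54, 72.4 and 17.0% in WT 1 to 3 and 47.2, 27.1 and 33.3% in Il1rnKO 1 to 3. The widest difference in that share was thus within wild type, between WT 1 and WT 2, where Ly6c2 got 28.7 of 31 reads and 4.14 of 15. The single-gene values depend on this division, and in Il1rnKO 2, where the sum is not whole, the sum may depend on how reads were divided too.

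**Figure D2:**
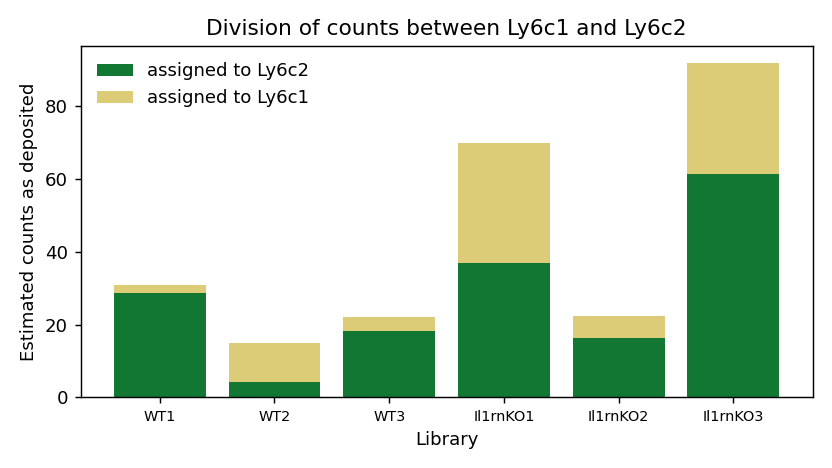
Estimated counts as deposited (vertical axis) assigned to Ly6c2 (green) and Ly6c1 (yellow, stacked on top) in each of the 6 libraries. The totals are highest in Il1rnKO 3 (92) and Il1rnKO 1 (70), while Il1rnKO 2 (22.5) lies among the wild-type libraries, and the divided share differs from library to library.

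Summed over the pair, LY6C transcripts were at 1.70, 0.927 and 1.70 CPM in WT 1 to 3 and at 3.87, 1.41 and 5.70 CPM in Il1rnKO 1 to 3. Il1rnKO 1 and 3 lay above every wild-type library, and Il1rnKO 2 lay within their range. Wild type averaged 1.44 ± 0.447 CPM and knockout 3.66 ± 2.15 CPM (SD, n = 3). Fitted as 1 gene, the pair had a log2 fold change of 1.34 (SE 0.62, unadjusted p = 0.0547 and adjusted p = 0.988 by edgeR). Without Il1rnKO 3 it was 0.87 (SE 0.72, adjusted p = 0.659), and without Il1rnKO 2 it was 1.70 (SE 0.54, unadjusted p = 0.012, adjusted p = 0.9999 by edgeR).

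Taken singly, Ly6c1 was at 0.110, 0.680 and 0.309 CPM in WT 1 to 3 and at 1.82, 0.384 and 1.92 CPM in Il1rnKO 1 to 3. Ly6c2 was at 1.59, 0.247 and 1.39 CPM in WT 1 to 3 and at 2.04, 1.02 and 3.78 CPM in Il1rnKO 1 to 3. For both genes Il1rnKO 2 lay within the wild-type range and Il1rnKO 1 and 3 above it. The log2 fold changes were 1.90 (SE 0.95) for Ly6c1 and 1.08 (SE 0.81) for Ly6c2, each with an adjusted p of 0.988 by edgeR. LY6C marks monocytes strongly, and all 7 monocyte markers were detected. Over the 6 libraries Ccr2 ran from 67.2 to 265 CPM, Ms4a6c from 73.1 to 108, F13a1 from 1.17 to 3.26 and Csf1r from 0.696 to 2.30 CPM, while Cd14 (at most 0.310 CPM) and Fcgr1 (at most 0.619 CPM) had 0 counts in 3 and 2 libraries. Lyz2, a lysozyme gene of monocytes and neutrophils, was at 7.79, 0.680 and 0.541 CPM in WT 1 to 3 and at 9.06, 7.68 and 19.3 CPM in Il1rnKO 1 to 3. Csf1r and F13a1 were highest in Il1rnKO 2, and the remaining monocyte markers in Il1rnKO 3. The part of monocytes and neutrophils in the LY6C values was not tested.

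Ly6d, the marker of B lineage commitment, had 6 counts in Il1rnKO 1 and 0 in the other 5 libraries. It did not pass the filter on low counts and was not tested. A count of 0 allows up to 3 counts, which is 0.165 to 0.232 CPM in these libraries and covers counting error only. The B cell list of 5 genes summed to 4.33 to 10.5 CPM in wild type and 3.45 to 9.54 CPM in knockout.

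**Figure D3:**
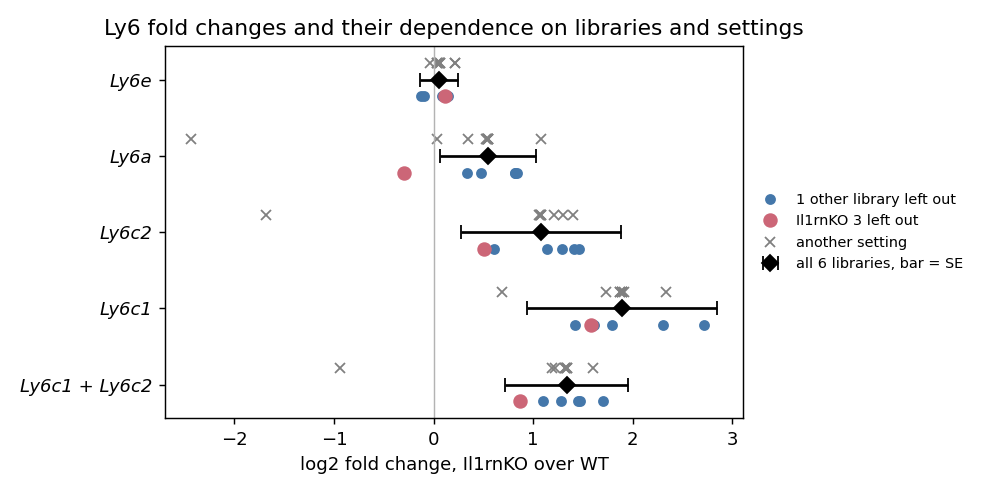
Log2 fold change of Il1rnKO over WT (horizontal axis) of the tested members and of Ly6c1 and Ly6c2 summed. Diamonds with SE bars are the values from all 6 libraries, dots leave out 1 library, and crosses use another setting. The Ly6a value falls from 0.55 to -0.30 without Il1rnKO 3 (red), and the crosses far to the left of 0 come from the fit with the neutrophil sum as a covariate.

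Other genes of the Ly6/uPAR family, which share the fold, gave no call either. Among all tested genes, 0.0523% were called, 4.08% had an unadjusted p under 0.05 and 52.6% a positive fold change. Of 40 listed symbols 38 were in the table, 20 of them had 0 counts in every library, 11 had counts but too few to test, and 7 were tested. Of these 7, 0 were called (1 at an unadjusted p under 0.05), 3 had positive and 4 negative fold changes, and the median log2 fold change was -0.16 beside 0.02 for all tested genes; with any 1 library left out, which also changes the genes that pass the filter, it was 0.04 to 0.70. Lypd6b, which encodes a modulator of nicotinic acetylcholine receptors, was at 9.33, 12.4 and 11.5 CPM in WT 1 to 3 and at 6.24, 6.01 and 6.44 CPM in Il1rnKO 1 to 3. Every knockout library of Lypd6b lay below every wild-type one, as was so for 3.65% of all tested genes. Its log2 fold change was -0.83 (SE 0.26, unadjusted p = 0.0093 and adjusted p = 0.988 by edgeR).

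Cd177, a surface protein of neutrophils, had 11, 0 and 0 counts in WT 1 to 3 and 18, 9 and 34 counts in Il1rnKO 1 to 3, and its fitted change was 2.48 log2 units (SE 1.27, adjusted p = 0.988 by edgeR). Without Il1rnKO 3 this change was 1.86, and without WT 1 it was 7.28; WT 2 and 3 had 0 counts, so the latter comes from the model and measures no fold. Ly6g, the classical surface marker of mouse neutrophils, was chosen for mention once its values had been seen. Ly6g was at 0 counts throughout wild type and at 9, 9 and 12 counts in Il1rnKO 1 to 3. With 3 counts over the wild-type group as the floor, this was 10.1-fold higher on library totals without TMM factors. That value leaves out counting error on the knockout counts and the spread between libraries. Ly6g did not pass the filter, so it was not tested. The sum of the neutrophil list moved the same way, with 36.5 to 117 CPM in knockout and 4.48 to 7.13 CPM in wild type. Not every marker followed, as Cxcr2, Csf3r and Retnlg overlapped between the groups. In Il1rnKO 3, Cxcr2 (2.41 CPM) was below every wild-type library (lowest 2.85 CPM). The part of neutrophils in the values of Cd177 and Ly6g was not tested.

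The remaining tested relatives overlapped between the groups. Ly6h, a brain-enriched member of the same chromosome 15 cluster, had a log2 fold change of 1.26 (SE 1.02), which was 0.71 without WT 3 and 2.32 without WT 1. Cd59b, a complement inhibitor, had 0.37 (SE 0.71), and Plaur, the urokinase receptor, had -0.18 (SE 0.74). Ly6g5b, from the second cluster of the family on chromosome 17, had -0.52 (SE 0.67), which was -0.0065 without WT 2 and -0.93 without WT 3. The gene 2010109I03Rik, which lies between Ly6d and Ly6e, had -0.16 (SE 0.76). Each had an adjusted p of at least 0.988 by edgeR.

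**Figure D4:**
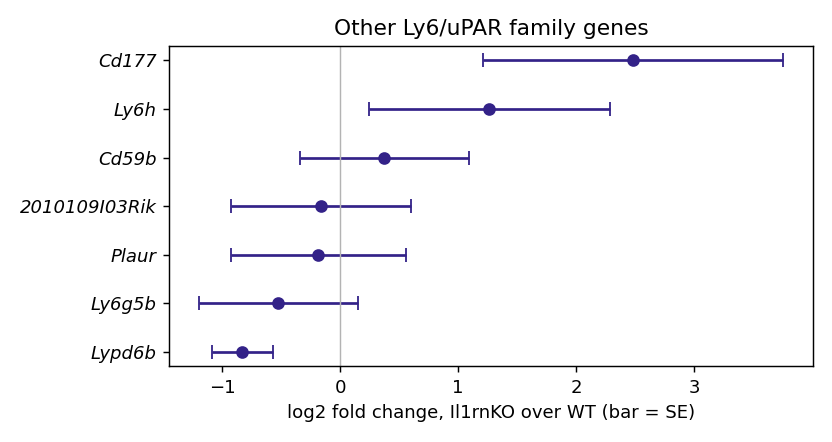
Log2 fold change of Il1rnKO over WT with its SE (horizontal axis) for the 7 tested genes of the wider Ly6/uPAR family. Values run from -0.83 for Lypd6b to 2.48 for Cd177, and none passed the test over all genes.

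Few genes around the members had counts in these T cells. Within 200 kb of a member, 40 other genes are annotated, 33 of them were in the table, 12 had any count and 4 were tested, with 0 called (0 at an unadjusted p under 0.05). Arc, an immediate early gene best known from neurons, had a log2 fold change of -0.22 (SE 0.36), and Them6, a thioesterase family gene, had -0.15 (SE 0.32).

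Genes that build or share the GPI anchor gave no call. Over all tested genes, 4.08% had an unadjusted p under 0.05 and 52.6% a positive fold change. Of 29 tested genes of GPI anchor synthesis and remodelling 0 passed (1 at an unadjusted p under 0.05), with 14 positive and 15 negative and a median log2 fold change of 0.00. Gpld1, a phospholipase that cuts GPI anchors, was at 3.35, 2.91 and 3.09 CPM in WT 1 to 3 and at 6.29, 5.88 and 6.01 CPM in Il1rnKO 1 to 3. The groups did not overlap for Gpld1, as was so in this direction for 5.77% of all tested genes (log2 fold change 0.96, SE 0.35, adjusted p = 0.988 by edgeR). Pgap1, which removes an acyl chain from the anchor, had -0.30 (SE 0.14), and Pigo, an ethanolamine phosphate transferase, had -0.24 (SE 0.16). Of 13 other GPI-anchored surface proteins 0 passed (0 at an unadjusted p under 0.05), with 8 positive and a median of 0.09. Cd24a had 2.23 (SE 1.02), from only 7, 8 and 0 counts in WT 1 to 3 and 35, 10 and 28 in Il1rnKO 1 to 3. It was at most 0.494 CPM in any wild-type library and at least 0.640 CPM in any knockout one. Ranges were apart in this direction for 5.77% of all tested genes. Cd55, which restrains complement, had -0.28 (SE 0.18), and Bst2, the interferon-induced tetherin, had 0.22 (SE 0.24).

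Genes of interferon signalling, the known inducer of Ly6a and Ly6e, gave no call. The shares over all tested genes were 4.08% at an unadjusted p under 0.05 and 52.6% with a positive fold change. Of 16 genes of interferon signalling 0 passed (0 at an unadjusted p under 0.05), 8 had positive and 8 negative fold changes, and the median was 0.02. Ifng itself was at 169, 158 and 189 CPM in WT 1 to 3 and at 115, 99.7 and 211 CPM in Il1rnKO 1 to 3. Il1rnKO 3 was the highest library of all, and the other knockout libraries lay below every wild-type one. The log2 fold change of Ifng was -0.28 (SE 0.25); it was -0.68 without Il1rnKO 3 (SE 0.16, adjusted p = 0.140 by edgeR), -0.10 without Il1rnKO 2 and -0.50 with limma voom and quality weights. The part of interferon-gamma in the Ly6a values was not tested. Irf1, a transcription factor of the response, had a log2 fold change of -0.03 (SE 0.17), which turned to 0.10 without WT 2. Stat2 had 0.37 (SE 0.20), Socs1, a feedback inhibitor, had 0.28 (SE 0.19), and Ifngr1, a subunit of the interferon-gamma receptor, had -0.42 (SE 0.25). WT 2 was at 355 CPM of Ifngr1 and the other wild-type libraries at 170.4 and 192 CPM, and without WT 2 the value was -0.02.

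Of 23 interferon targets 0 passed (3 at an unadjusted p under 0.05), with 15 positive and a median log2 fold change of 0.10 (-0.01 to 0.21 with 1 library left out). The 3 with the smallest p were Ifi44 with 1.19 (SE 0.35), Xaf1 with 0.42 (SE 0.17) and Rtp4 with 0.52 (SE 0.22), each with an adjusted p of 0.988 by edgeR. For these 3 every knockout library lay above every wild-type one, as for 5.77% of all tested genes. For 1 other target every knockout library lay below, as for 3.65%. Of all tested genes, 4.08% had an unadjusted p under 0.05 and 52.6% were positive. Among 15 genes known to accompany LY6C on memory CD4 T cells 0 passed (1 at an unadjusted p under 0.05). Of the 15, 11 were positive, with a median of 0.13. Ranges were apart for 3, higher in knockout, Il18rap and Selplg included, and 0 were lower. Il18rap, part of the interleukin-18 receptor, had 0.67 (SE 0.18), Selplg, the selectin ligand PSGL-1, had 0.27 (SE 0.15) and Il7r, the interleukin-7 receptor, had -0.32 (SE 0.18). Tbx21, the regulator of type 1 helper cells, had 0.33 (SE 0.25).

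The genes whose pattern over the 6 libraries was nearest to each member differed from member to member. Nearness was the root mean square difference of log2 CPM after subtracting each gene's mean, over 12057 named genes. Genes picked this way have nearly the member's own pattern by choice, so their shared high and low libraries are no separate result. Nearest to Ly6a were S100a4, a calcium-binding protein of effector and memory T cells, at 0.187, Itm2a, a membrane protein induced on T cell activation, at 0.202, and Tmem176a, a membrane protein, at 0.206. All 3 were highest in Il1rnKO 3, at 1.40, 1.14 and 1.26 above their own means. Nearest to Ly6e were Cptp at 0.058, Ado at 0.0584 and Zscan22 at 0.061. All of them were highest in Il1rnKO 1, with WT 1 next, and lowest in WT 2. Nearest to Ly6c2 were Pparg at 0.231, Tmem163 at 0.355 and Lrrc17 at 0.370, and nearest to Ly6c1 were Ccr10 at 0.419, Tmem30b at 0.450 and Ccl9 at 0.468. Ly6c2 and Ly6c1 themselves had an SD of 1.13 and 1.25 in log2 CPM, against 0.24 for Ly6e, and their values rest on few reads divided between them.

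**Figure D5:**
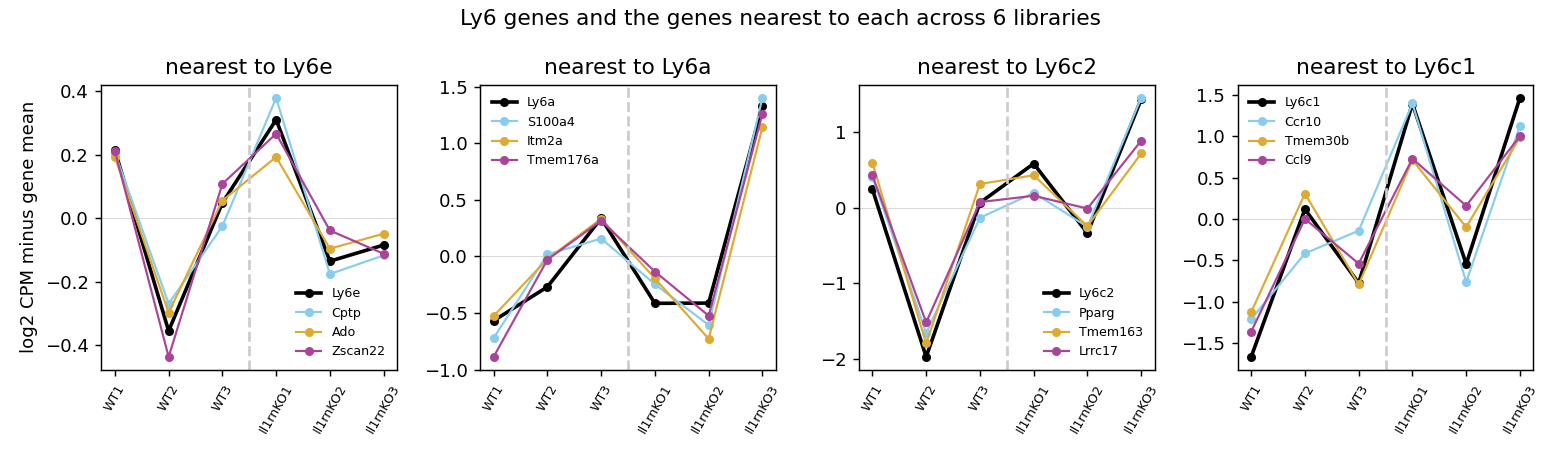
Log2 CPM minus each gene's mean (vertical axis) in the 6 libraries for Ly6e, Ly6a, Ly6c2 and Ly6c1 (black) and the 3 genes nearest to each (colours); lines only join libraries, which have no order within a group. Ly6a and its nearest genes, which were picked for likeness to Ly6a, peak in Il1rnKO 3. S100a4 is 1.40 above its mean there. The Ly6e panel has a narrower axis.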

How the data were processed

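Values are estimated counts per gene as the authors deposited them, unscaled and partly with decimals. Per the submitters' processing notes, reads were placed on GRCm38. Which aligner and counting program were used, and whether strand counted, is not given in the sources used here. Libraries were poly(A)-selected, per the labels' protocols. Counts were rounded; 34652 of 34866 identifiers matched GENCODE M21 of the same build with versions left off. Coding sequences were the complete ones shared by most M21 transcripts of a gene, aligned with Biopython 1.88.

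Il1rnKO was tested against WT in edgeR 4.0.16 (R 4.3.3) with TMM, filterByExpr (minimum count 10, minimum total 15; 13374 genes), the two-sided quasi-likelihood test and Benjamini-Hochberg adjustment over all tested genes. The pair was refitted as 1 row. DESeq2 1.42.0, limma 3.58.1 voom, other normalizations and filters, covariates and left-out libraries were alternatives. Fits were tested on simulated data. Named genes were the members, tested relatives, the 3 smallest p per list (with Ifng, Irf1 and Tbx21), 2 neighbours and the 3 nearest genes; a gene named by this rule is not reported here. Members and lists were chosen with earlier results of these data known.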

Additional observations from a re-analysis of the deposited data

How the results depend on the processing

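No alternative called a member. With a filter of at least 50 counts in 3 libraries only 2 members were tested, Ly6a and Ly6e, so Ly6c1 and Ly6c2 could not be called there. Genes called over the whole table were 7 with the main settings, 22 with DESeq2, 11 with limma voom and quality weights, 14 with the mitochondrial share as a covariate, 0 with the neutrophil sum as a covariate, 58 with no filter and 3 to 10 with 1 library left out. The labels do not say whether replicate numbers pair the samples. Deviations of same-numbered libraries correlated at 0.108, 0.053 and 0.116. These were not compared with differently numbered libraries, so the values cannot settle whether samples were paired. The replicate block gave 11 calls and 0 members. The neutrophil sum does not overlap between the groups, so it and genotype are nearly the same variable and its fit cannot tell them apart. In that fit Ly6a was -2.44, Ly6c2 -1.68, the pair -0.94, 2010109I03Rik 2.99, Arc 0.82, Bst2 -0.60, Cd177 -2.95, Cd59b -1.88, Il7r 0.0022, Ly6h -2.79, Rtp4 -0.77 and Selplg -0.17. With the mitochondrial share, signs turned for Ly6e (-0.032), Irf1 (0.042), Plaur (0.090) and Them6 (0.18), and with voom for 2010109I03Rik (0.23). With 1 library left out the ranges were -0.30 to 0.84 for Ly6a, 0.51 to 1.46 for Ly6c2, 1.42 to 2.71 for Ly6c1, 0.87 to 1.70 for the pair, -0.12 to 0.15 for Ly6e, -0.93 to 0.23 for 2010109I03Rik, -0.64 to 0.043 for Arc, -0.0070 to 0.43 for Bst2, -0.15 to 0.78 for Cd59b, -0.15 to 0.10 for Irf1, -0.55 to 0.76 for Plaur, 1.86 to 7.28 for Cd177, 0.71 to 2.32 for Ly6h, -0.93 to -0.0065 for Ly6g5b, -0.68 to -0.10 for Ifng, -0.65 to -0.022 for Ifngr1, -0.46 to -0.083 for Cd55, 0.11 to 0.54 for Tbx21, 0.12 to 0.38 for Socs1, 0.18 to 0.48 for Stat2, 0.26 to 0.66 for Rtp4 and -0.41 to 0.12 for Them6. The cause of these shifts was not tested. Ly6c1 and Ly6c2 rest on so few counts that only large differences could be detected. Ly6d and Ly6g had too few counts to be tested with the main settings.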
